A study of Mus musculus with 3 samples.

Results

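Chromatin modifiers and remodellers are the enzymes and complexes that add or remove marks on histones and DNA, or that slide, evict and exchange nucleosomes. The 48 genes described here were chosen by symbol among 12394 genes with a value: the histone deacetylases (Hdac), the acetyltransferase Crebbp, the histone lysine demethylases (Kdm, without Kdm5c and Kdm5d), Polycomb repressive complex 2 (Ezh1, Ezh2, Eed and Suz12), the Smarc genes, the CHD remodellers, Atrx, the DNA methyltransferases (Dnmt) and the TET enzyme Tet1. They are covered by 87 probe sets, each a group of short probes read together as 1 value. For Ep300, which the choice also named, no probe set carried its symbol alone, so it is not analysed here. RNA was measured on 1 array each in 3 samples of normal mouse muscle, called muscle 1, muscle 2 and muscle 3, which form the only group. Their genotype is given as littermate control and their age as 3 to 6 weeks, with no statement of which muscle was taken or whether each came from its own animal. In the study they served as the normal tissue set against tumours of Pax7-expressing satellite cells. The tumours are not analysed here.

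As background, acetylation by CBP loosens chromatin and deacetylases reverse it, PRC2 writes a repressive methyl mark that Kdm6a can erase, SWI/SNF, ISWI and CHD proteins use ATP to move nucleosomes, and DNA methylation written by the Dnmt enzymes is oxidised by TET enzymes. In skeletal muscle, class IIa deacetylases bind MEF2 factors and hold back the genes they activate, and the SWI/SNF subunit encoded by Smarcd3 works with MyoD when muscle genes are switched on.

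All levels are log2 values after RMA, written as mean ± SD (n = 3 muscles) or muscle by muscle. A probe set was called above background in a muscle when it exceeded the 95th percentile of a list of 53 genes typical of other organs, measured by 85 probe sets. This gave 5.97, 6.26 and 6.14 for muscles 1, 2 and 3. A gene with several probe sets is represented by the one whose mean is highest. Different probe sets bind with different strength, so levels of different genes are not ranked. Fibre genes were strongly measured: all 5 looked at were above background in every muscle, with the actin Acta1 at 13.62 ± 0.03, the creatine kinase Ckm at 13.61 ± 0.01, the myosins Myh4 and Myh1 at 13.26 ± 0.03 and 13.37 ± 0.03, and titin (Ttn) at 13.25 ± 0.03. Of the satellite cell genes, Pax7 was below background in all 3, at 5.31 ± 0.19, and Myf5 above it in all 3, at 6.56 ± 0.13. Other cells of the tissue were measured too. The leukocyte genes Ptprc and Cd3e were above background throughout, at 8.88 ± 0.09 and 7.33 ± 0.19, with Cd68 below it, and so were the endothelial genes Cdh5 and Pecam1, at 8.49 ± 0.17 and 6.49 ± 0.10. Markers of neurons and germ cells were below background in every muscle in 3 of 3 and 2 of 2 cases, although all but Rbfox3 also belong to the genes that set the background. In whole tissue, fewer cells of a type and less RNA per cell cannot be told apart.

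Most of the chromatin genes were above background. Of the 48, 35 were above it in all 3 muscles, 72.9%, against 55.3% of all 12394 genes. A further 8 were below it in every muscle, 16.7%, against 39.1% of all genes, and 5 lay above it in 1 or 2 muscles. The counts by family rest on the highest probe set of each gene. All 4 genes of PRC2 and 11 of 12 Smarc genes were above background in every muscle, as were 5 of 6 CHD genes and 6 of 8 deacetylases, but only 6 of 11 demethylases and 2 of 4 DNA methyltransferases. Families were covered unevenly, with 11 probe sets for the 4 PRC2 genes, 24 for the 12 Smarc genes and 14 for the 11 demethylases. More probe sets give a gene more ways to pass, so families are not ranked by these counts. The 8 genes below background throughout were Hdac9, Hdac11, Kdm5a, Kdm7a, Kdm8, Smarca1, Dnmt3b and Dnmt3l.

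**Figure D1:**
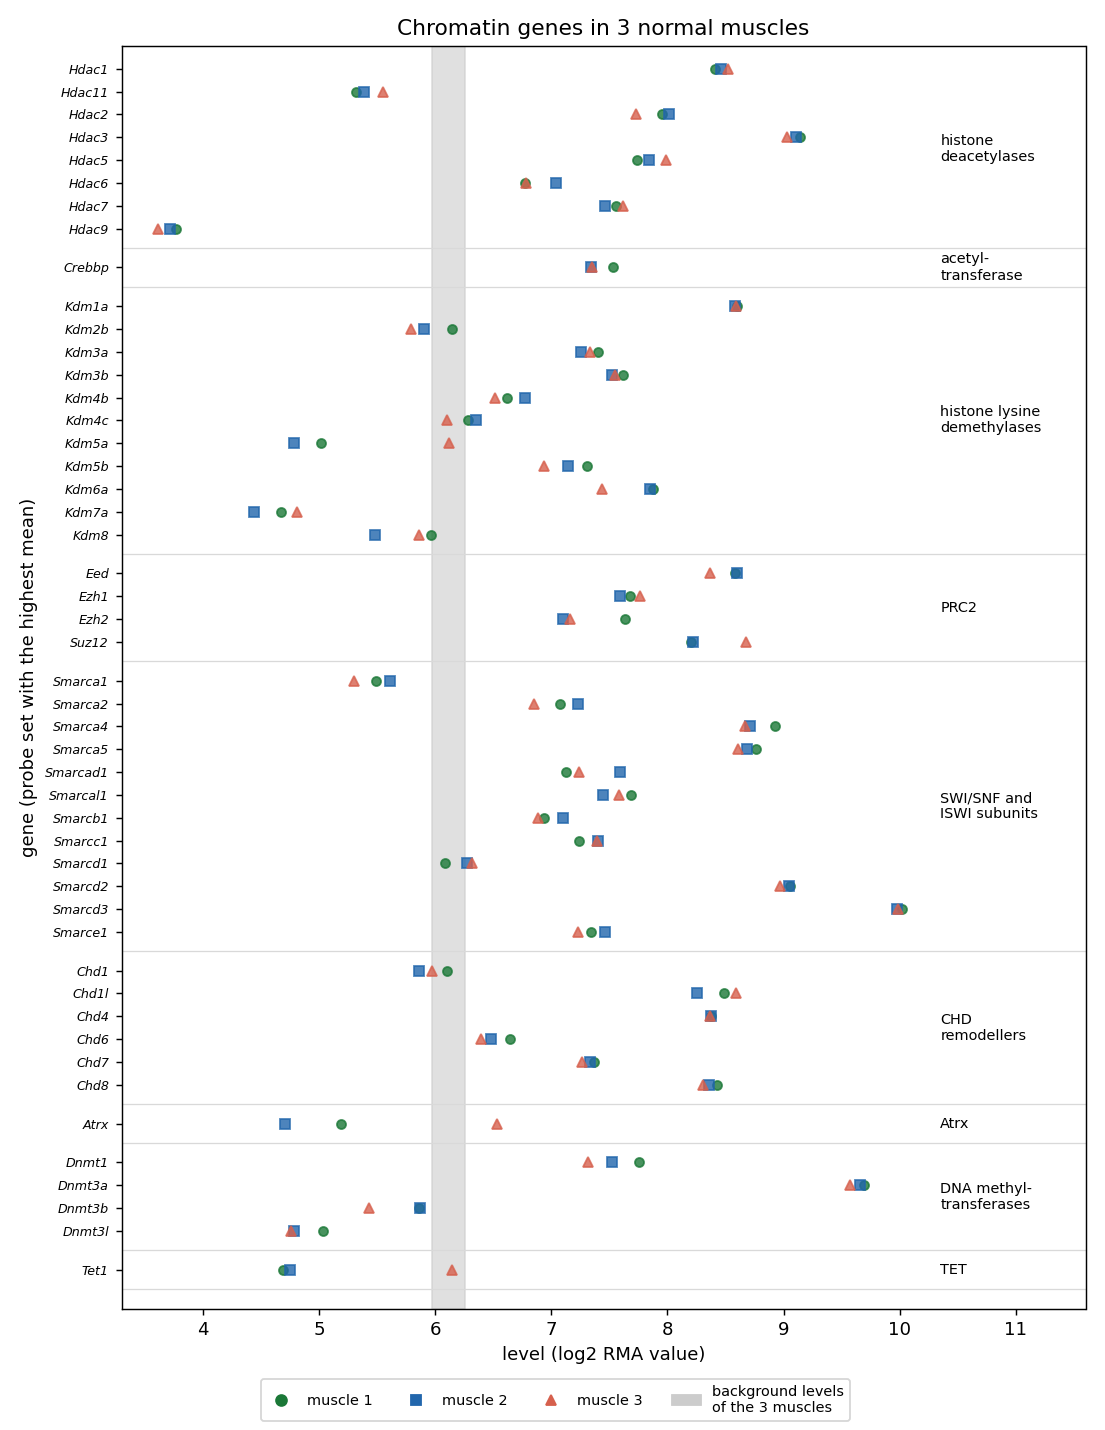
Level of each chromatin gene (log2 RMA value, horizontal axis) in muscle 1 (circles), muscle 2 (squares) and muscle 3 (triangles), by family. The grey band spans the background levels of the 3 muscles, 5.97 to 6.26. In most rows the 3 symbols nearly coincide; Atrx, Tet1 and Kdm5a have their triangle more than 1 to the right of the other symbols.

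Promoters are shown first for Atrx and Tet1, which had the widest ranges among genes above background in a muscle, for Dnmt3a, of which 2 of 5 probe sets differed between muscles, and for Dnmt3l, below background in every muscle, as the contrast in sequence. RefSeq windows on the mouse build GRCm38.p6, running from 250 bases before a transcript start to 50 after it, were found for 40 of the 48 genes, and not for Kdm5a. Dnmt3a and Dnmt3l have 3 windows each, of which 2 and 1 are printed. Capitals mark CpG, the dinucleotide that the Dnmt enzymes methylate and the TET enzymes act on.
Dnmt3a, chr12:3806730-3807029, plus strand: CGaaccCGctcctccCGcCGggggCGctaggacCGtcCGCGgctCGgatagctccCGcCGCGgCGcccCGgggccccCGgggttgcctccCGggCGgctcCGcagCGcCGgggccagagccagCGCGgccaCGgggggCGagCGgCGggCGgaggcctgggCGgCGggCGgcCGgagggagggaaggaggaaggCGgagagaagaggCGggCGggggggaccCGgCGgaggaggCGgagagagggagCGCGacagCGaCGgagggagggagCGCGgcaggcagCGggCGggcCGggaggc
Dnmt3a, a start further downstream, chr12:3891494-3891793, plus strand: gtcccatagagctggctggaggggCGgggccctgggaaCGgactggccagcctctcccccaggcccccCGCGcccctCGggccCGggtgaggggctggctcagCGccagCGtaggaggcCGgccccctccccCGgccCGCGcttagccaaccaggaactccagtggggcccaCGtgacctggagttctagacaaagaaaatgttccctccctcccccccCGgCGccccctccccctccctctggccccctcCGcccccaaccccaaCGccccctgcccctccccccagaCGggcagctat
Atrx, chrX:105929323-105929622, minus strand: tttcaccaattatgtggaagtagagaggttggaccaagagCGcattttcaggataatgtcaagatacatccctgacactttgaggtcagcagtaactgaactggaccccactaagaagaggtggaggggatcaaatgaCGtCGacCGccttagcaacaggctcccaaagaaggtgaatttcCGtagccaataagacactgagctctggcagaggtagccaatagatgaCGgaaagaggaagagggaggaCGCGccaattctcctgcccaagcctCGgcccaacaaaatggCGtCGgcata
Tet1, chr10:62887275-62887574, minus strand: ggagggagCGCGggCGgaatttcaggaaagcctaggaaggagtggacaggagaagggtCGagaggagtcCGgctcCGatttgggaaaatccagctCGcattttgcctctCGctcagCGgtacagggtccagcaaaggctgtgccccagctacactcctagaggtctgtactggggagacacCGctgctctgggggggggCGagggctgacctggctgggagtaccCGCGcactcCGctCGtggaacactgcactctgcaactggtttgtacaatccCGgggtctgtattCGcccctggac
Dnmt3l, chr10:78042037-78042336, plus strand: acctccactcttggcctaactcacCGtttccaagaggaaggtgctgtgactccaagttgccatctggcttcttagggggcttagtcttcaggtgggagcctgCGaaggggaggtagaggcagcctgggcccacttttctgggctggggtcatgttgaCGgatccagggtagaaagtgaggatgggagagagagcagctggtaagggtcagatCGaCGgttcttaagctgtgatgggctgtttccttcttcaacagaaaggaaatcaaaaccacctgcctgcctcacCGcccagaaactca

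The upstream Dnmt3a window holds 46 CpG, an observed over expected ratio of 0.96, and the downstream one 18, a ratio of 0.47. The Atrx window holds 11 CpG (0.58), that of Tet1 17 (0.61) and the printed one of Dnmt3l 6 (0.27). The windows not printed had ratios of 1.06 for Dnmt3a and of 0.22 and 0.11 for Dnmt3l. Over the 58 windows of the 40 genes, the median ratio was 0.81 and 74.1% exceeded 0.6, against a median of 0.38 and 35.8% over all 32851 windows. Windows of chromatin genes above background in all 3 muscles, 40 windows of 29 genes, had a median ratio of 0.88. Those of genes below it in every muscle, 10 windows of 7 genes, had a median of 0.34, and 4 of the 10 exceeded 0.6. The same medians over all measured genes were 0.77 and 0.42. The medians lay in the same order, but Dnmt3l and Hdac9 gave several of the 10 windows, so the 0.34 does not weigh genes equally. Ratios in the class below background were split. Hdac9, below background, had windows with ratios of 0.20 and 0, but the window of Kdm7a, also below background, had the highest ratio of all 58, 1.28. In the same class, Dnmt3b, Hdac11 and Kdm8 had ratios of 0.69, 0.66 and 0.69, and Smarca1 had 0.41.

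**Figure D2:**
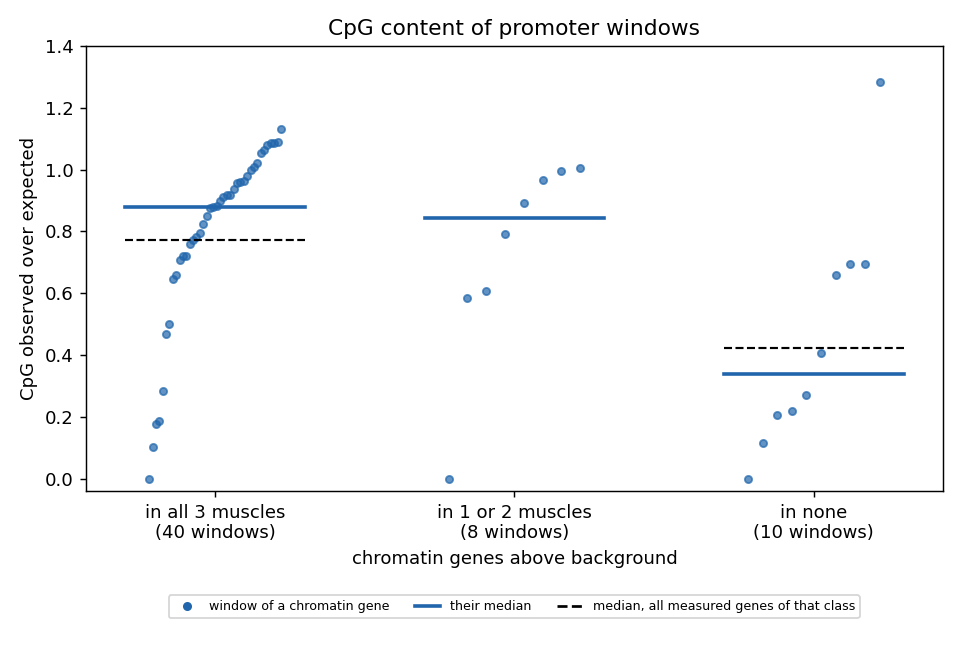
CpG observed over expected (vertical axis, no unit) in promoter windows of chromatin genes, 1 point per window, by whether the gene was above background in all 3 muscles, in 1 or 2, or in none. Solid bars are the medians of the points, 0.88 in the left class and 0.34 in the right one; dashed bars are the medians over all measured genes of the same class, 0.77 and 0.42.

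Motifs were searched on both strands, and matches of different motifs may overlap. The GC box GGGCGG was in 67.2% of the chromatin gene windows and in 35.7% of all windows, but among genes above background in all muscles the shares were 67.5% for chromatin genes and 64.7% for all measured genes. CCAAT was in 36.2% against 37.4% of all windows, TATAAA in 3.45% against 13.6%, and the E-box CANNTG in 69% against 72.3%. The TATAAA share is 2 of 58 windows. Among genes above background in all muscles it was 2.5% for chromatin genes and 7.36% for all measured genes. The MEF2 motif was found in 2 windows, 1 of Hdac5 and 1 of Kdm4c, which is 3.45% against 3.19% of all windows. A match describes letters in this window and is no evidence of binding.

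Among the histone deacetylases, the class I enzymes Hdac1, Hdac2 and Hdac3, which work inside the NuRD, Sin3, CoREST and NCoR corepressor complexes, were all above background. Hdac1 was at 8.41, 8.46 and 8.52 in muscles 1, 2 and 3, Hdac2 at 7.95, 8.01 and 7.73, and Hdac3 at 9.14, 9.10 and 9.03. The widest range of these, 0.28, was that of Hdac2. Of the class IIa enzymes, which shuttle out of the nucleus when phosphorylated, Hdac5 was at 7.86 ± 0.12 and Hdac7 at 7.54 ± 0.08, while Hdac9 was at 3.70 ± 0.08, below background. Hdac6, a mainly cytoplasmic deacetylase of tubulin, was at 6.87 ± 0.15. Hdac11, the class IV enzyme, was below background on both of its probe sets, at 5.42 ± 0.12 on the higher. The acetyltransferase gene Crebbp was at 7.53, 7.34 and 7.35. Of 15 measured partners of deacetylases in corepressor complexes, 13 were above background in all 3 muscles and none in no muscle, with the NuRD subunits Mta1 at 7.60 ± 0.10 and Mta2 at 7.60 ± 0.07 and the methyl-DNA binding protein gene Mbd2 at 8.34 ± 0.04. Of 8 other acetyltransferases, 7 were, with Kat2a at 7.15 ± 0.05, Kat2b at 10.45 ± 0.10 and Kat6a at 8.52 ± 0.04.

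The demethylases were divided, with 6 of 11 above background throughout and 3 in no muscle. Kdm1a, the flavin-dependent enzyme of the CoREST complex, was at 8.60, 8.58 and 8.59, an SD of 0.00719. Kdm3a and Kdm3b, which remove methyl groups from a repressive site of histone H3, were at 7.33 ± 0.07 and 7.56 ± 0.05, and Kdm4b, which acts on the same site, at 6.64 ± 0.13. Its relative Kdm4c was above background in muscles 1 and 2 only, at 6.28 and 6.35, with 6.10 in muscle 3. Kdm2b, which brings a Polycomb complex to unmethylated CpG islands, passed background in muscle 1 only, at 6.15, with 5.91 and 5.79 in muscles 2 and 3. These values lie close to background, and both genes were above it throughout when a second list of background genes was used. Kdm5b, which erases a mark of active promoters, was at 7.13 ± 0.19. Kdm6a, which removes the mark that PRC2 writes, read 7.44 in muscle 3, below the 7.87 and 7.85 of the other muscles. Kdm7a and Kdm8 were below background, at 4.64 ± 0.19 and 5.77 ± 0.25.

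Every core subunit of PRC2 was above background by its highest probe set. The catalytic subunit Ezh1, which is known to be kept in cells that no longer divide, was at 7.68, 7.59 and 7.76. Ezh2, the catalytic subunit typical of dividing cells, was at 7.63, 7.10 and 7.16, and the range of 0.53 was the widest among the 35 chromatin genes above background in all muscles. Muscle 1 was the high sample. Dnmt1, which copies DNA methylation at replication, was also highest there on its brighter probe set, at 7.75, 7.52 and 7.31, but not on the other, at 7.04, 7.11 and 7.04. The proliferation marker Mki67 was at 7.63, 7.38 and 7.28. The proliferation gene Top2a was highest in muscle 2 instead, at 6.71, 6.96 and 6.75, and Cdk1 was below background, at 5.71 ± 0.14. The part of dividing cells in the Ezh2 and Dnmt1 values was not tested. Eed, which binds the finished mark, was at 8.58, 8.60 and 8.37. Suz12, the scaffold, was at 8.67 in muscle 3, against 8.20 and 8.22, and its other probe set above background was ordered in the same way, at 6.72 against 6.30 and 6.40. In no muscle did the remaining 4 Suz12 probe sets exceed background. Of 15 measured partners in the Polycomb complexes, 11 were above background throughout, with Bmi1 at 9.07 ± 0.08, Ring1 at 7.25 ± 0.32 and Rnf2 at 8.71 ± 0.07. Of 13 histone methyltransferases outside PRC2, 9 were, with Kmt2a at 7.83 ± 0.11, Kmt2c at 7.32 ± 0.17 and Kmt2e at 9.61 ± 0.15.

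The Smarc genes code for SWI/SNF subunits, for the ISWI motors and for a pair of related ATPases. Both alternative SWI/SNF motors were above background, Smarca4 at 8.92, 8.71 and 8.67 and Smarca2 at 7.08, 7.23 and 6.85. Among the subunits that link SWI/SNF to transcription factors, Smarcd3, the form known from heart and skeletal muscle, was at 10.02, 9.98 and 9.99, an SD of 0.0216. The alternative forms were at 9.02 ± 0.05 for Smarcd2 and 6.22 ± 0.13 for Smarcd1, which cleared background by only 0.014 in its closest muscle. The core subunit Smarcb1, whose loss defines rhabdoid tumours, was at 6.97 ± 0.11, the scaffold Smarcc1 at 7.34 ± 0.09 and Smarce1 at 7.34 ± 0.11. Of the ISWI motors, Smarca5 was at 8.68 ± 0.08 and Smarca1 was below background, at 5.47 ± 0.16. Smarcad1 and Smarcal1, ATPases of DNA replication and repair that are no SWI/SNF subunits, were at 7.32 ± 0.24 and 7.57 ± 0.12. Of 14 other SWI/SNF subunits, 11 were above background throughout, with Arid1a at 8.23 ± 0.12, Arid2 at 8.93 ± 0.01 and Pbrm1 at 9.71 ± 0.11. Of 6 genes of the INO80 and SRCAP remodellers, 5 were, with Ino80 at 7.42 ± 0.04, Ruvbl1 at 7.50 ± 0.04 and Ruvbl2 at 8.09 ± 0.07.

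Among the CHD remodellers, Chd4, the motor of NuRD, was at 8.37, 8.37 and 8.36, and its SD of 0.00544 was the smallest of the 35 genes. That value belongs to 1 of its 3 probe sets, and another, with a mean of 6.45, ranged from 5.94 in muscle 2 to 6.85 in muscle 3. Chd7 and Chd8, both known from human developmental disorders, were at 7.32 ± 0.05 and 8.36 ± 0.06. Chd1l was at 8.44 ± 0.17 and Chd6 at 6.51 ± 0.13. Chd1, which binds a mark of active promoters, passed background in muscle 1 only, at 6.10, with 5.86 and 5.98 in muscles 2 and 3.

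Of the DNA methyltransferases, Dnmt1 and Dnmt3a were above background on every probe set. Dnmt3b, the other enzyme of new methylation, was at 5.72 ± 0.25 and Dnmt3l, a cofactor of new methylation in germ cells, at 4.86 ± 0.15, both below background. Of 3 genes for partners of DNA methylation, 2 were above background throughout, Uhrf1 at 6.59 ± 0.05 and Mbd1 at 8.28 ± 0.07. By its highest probe set Dnmt3a was steady, at 9.57 in muscle 3, close to the 9.69 and 9.66 of the other muscles. A second probe set, with a mean of 9.21, was at 9.07 against 9.26 and 9.30, and another, with a mean of 6.98, at 7.02 against 7.04 and 6.89.

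The other 2 Dnmt3a probe sets did not follow. In muscle 3 the first read 8.73, against 6.99 and 6.77 in muscles 1 and 2. The second read 8.97 in muscle 3, against 7.49 and 7.63. Muscle 3 thus exceeded the mean of the other muscles by 1.85 and 1.41 on the log2 scale, 3.61-fold and 2.65-fold, and all values were above background. The annotation ties all 5 Dnmt3a probe sets to 1 transcript record, so they are not independent measurements of the gene. These probe sets were singled out after their values were seen.

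Atrx, a remodeller that with Daxx places a histone variant in heterochromatin, was read near or below background. Its highest probe set read 6.53 in muscle 3, against 5.19 and 4.71, and was above background in muscle 3 only. Another read 5.75 in muscle 3, against 3.48 and 3.82, and stayed below background in all 3. The remaining 3, below background in every muscle and so no evidence of a steady level, read 4.88 against 4.54 and 4.76, 4.45 against 4.25 and 4.28, and 3.40 against 3.62 and 3.41. All 5 are tied to 1 transcript record. No fold is given for Atrx, since the lower values are under background. Daxx itself was at 7.07 ± 0.10, above background throughout.

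Tet1, Kdm5a and Smarca5 each had a probe set highest in muscle 3. For Tet1 the higher probe set read 6.15 in muscle 3, against 4.69 and 4.75, and crossed background there by less than 0.01, while the other Tet1 probe set was at 3.76 against 3.76 and 4.34. The only probe set of Kdm5a, which erases a mark of active promoters, was at 6.12 in muscle 3, against 5.02 and 4.78, all below background. For Smarca5 the dimmest probe set read 7.52 in muscle 3, against 6.69 and 6.52, whereas the brighter probe sets were at 8.61 against 8.76 and 8.69 and at 8.51 against 8.64 and 8.57.

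**Figure D3:**
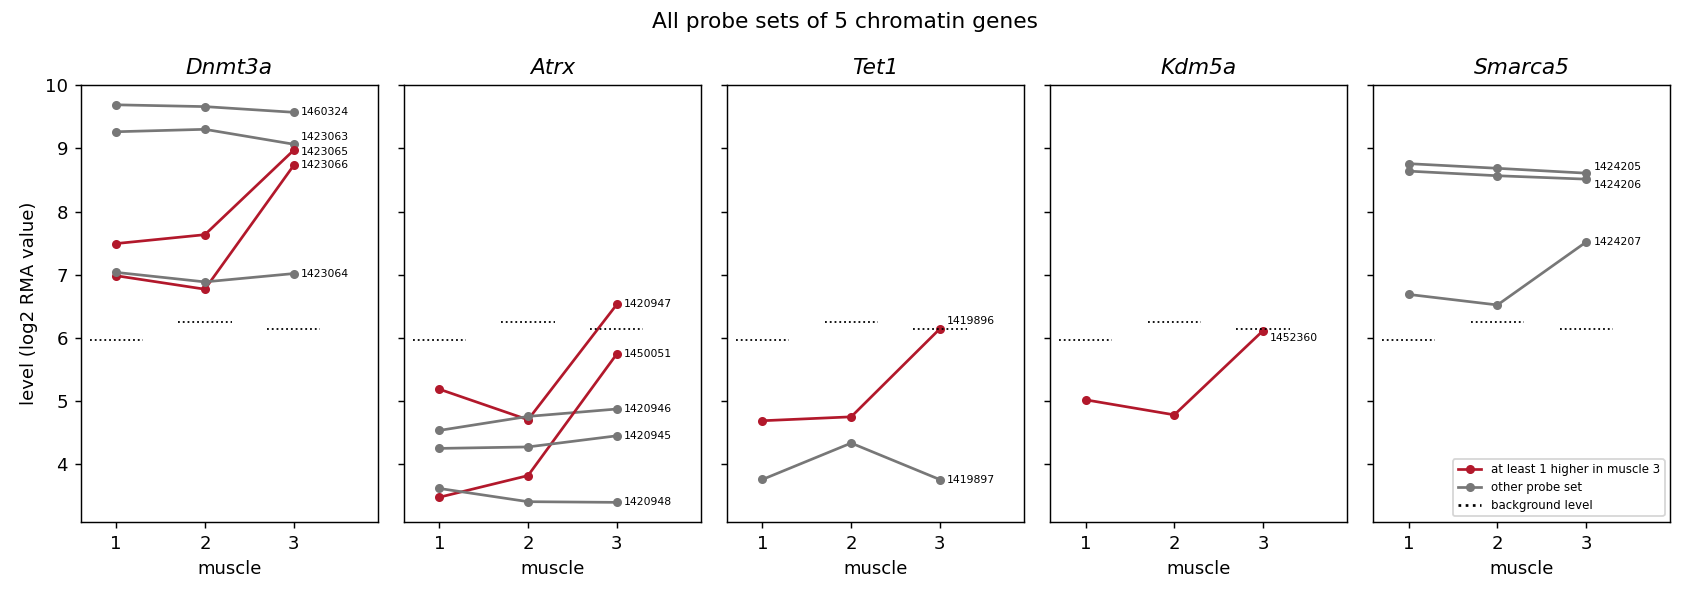
Levels (log2 RMA value, vertical axis) of every probe set of Dnmt3a, Atrx, Tet1, Kdm5a and Smarca5 in muscles 1, 2 and 3; lines join the values of 1 probe set, marked with its array number, and short dotted bars are the background level of each muscle. Probe sets at least 1 higher in muscle 3 than the mean of the others are red; in Dnmt3a 2 of 5 are, and the remaining 3 stay within 0.24 over the muscles.

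Over the chromatin genes as a whole, as over all genes, muscle 3 was the high sample less often than muscle 1 or muscle 2. Of the 40 genes above background in at least 1 muscle, 20 were highest in muscle 1, 11 in muscle 2 and 9 in muscle 3. These are 50%, 27.5% and 22.5%, while over all 7548 such genes the shares were 41.1%, 34.8% and 24.1%. Muscle 3 was the lowest for 20 of the 40, 50%, against 47.4% of all genes. Nothing particular to the chromatin genes is read from these shares. The departure of a muscle is its value less the average of the remaining muscles. Its medians over the 40 were 0.06, -0.01 and -0.09 for muscles 1, 2 and 3, and over all genes 0.03, 0.01 and -0.04. The median SD of the 35 genes above background throughout was 0.115, against 0.0757 for all such genes, but their median level was 7.57 against 8.19. Variance was also set against that expected at the level of each gene, over genes above background in at least 1 muscle. The median ratio was 0.85 for the 40 chromatin genes and 0.76 for all 7548. The 40 include Atrx and Tet1, which passed background only in muscle 3, where they were high. They also include Chd1 and Kdm2b, which passed it only in muscle 1, where they were highest. Such genes add to the count of a muscle through the filter itself.

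With 1 group there is no contrast between conditions. The variance of each gene between muscles was tested against limma's prior variance for its level, over all 7548 genes, with Benjamini-Hochberg adjustment. By limma's test, 0 of the 40 chromatin genes were called, against 0.0795% of all genes, and 5 had an unadjusted p under 0.05, against 4.98% of all. These were Atrx, Suz12, Tet1, Ezh2 and Kdm6a, whose adjusted p-values from limma were 0.73, 0.81, 0.90, 0.95 and 0.97 in that order. A range of at least 1, a 2-fold span, was met by Atrx and Tet1, while the share over all genes was 0.305%. Both genes were among the 40 only through muscle 3, where they were high, so nothing is read from these counts. Over the genes above background in all 3 muscles, a comparison added after the data were seen, 0 of 35 had such a range, against 0.117% of 6852. In that set 3 of 35, Suz12, Ezh2 and Kdm6a, had an unadjusted p under 0.05 from limma, against 4.93%.

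Applied to probe sets in place of genes, a step added after the data were seen, limma's variance test called 2 of the 58 chromatin probe sets above background in at least 1 muscle, against 0.145% of 11032 probe sets. Both were of Dnmt3a, with limma's adjusted p of 0.039 for the probe set at 8.73 in muscle 3 and 0.0474 for the one at 8.97. At an unadjusted p under 0.05 there were 11 of 58, a set that includes probe sets admitted by 1 high muscle, against 4.99% of all. The calls are near the threshold: limma's adjusted p for the same probe sets, in that order, was 0.0986 and 0.152 without muscle 1, 0.0929 for both without muscle 2, 0.984 for both without muscle 3, and 0.0507 and 0.0607 with background at the 99th percentile. With a prior that does not depend on level it was 0.934 for both, and without the robust option 0.141 and 0.162. Both calls held in the remaining settings. There limma's adjusted p was 0.0125 and 0.0158 after quantile normalization of the 3 muscles, and 0.0413 and 0.0484 after centring each on its median. With a second list of background genes it was 0.0288 and 0.0367, and with no background filter 0.0355 and 0.0477. Departures of at least 1 upward in muscle 3 were found for 4 of the 58 probe sets, 2 of Dnmt3a and 1 each of Atrx and Tet1, while the share over all probe sets was 0.426%. Those of Atrx and Tet1 were again admitted by muscle 3 alone. Over probe sets above background in all 3 muscles the count was 2 of 49, both of Dnmt3a, against 0.215% of 9788; both were singled out after their values were seen. Of 76 measured genes of partner complexes, chosen with earlier results known, 60 were above background throughout, 78.9%, against 55.3% of all genes. Of the 64 above it in at least 1 muscle, 0 had a range of at least 1, against 0.305% of all genes. By limma's test 0 were called, against 0.0795%, and 7 had an unadjusted p under 0.05, against 4.98%. None of their 91 probe sets departed upward by 1 in muscle 3, against 0.426% of all probe sets. With shares this small, counts of 0 in sets of this size do not set the partners apart.

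**Figure D4:**
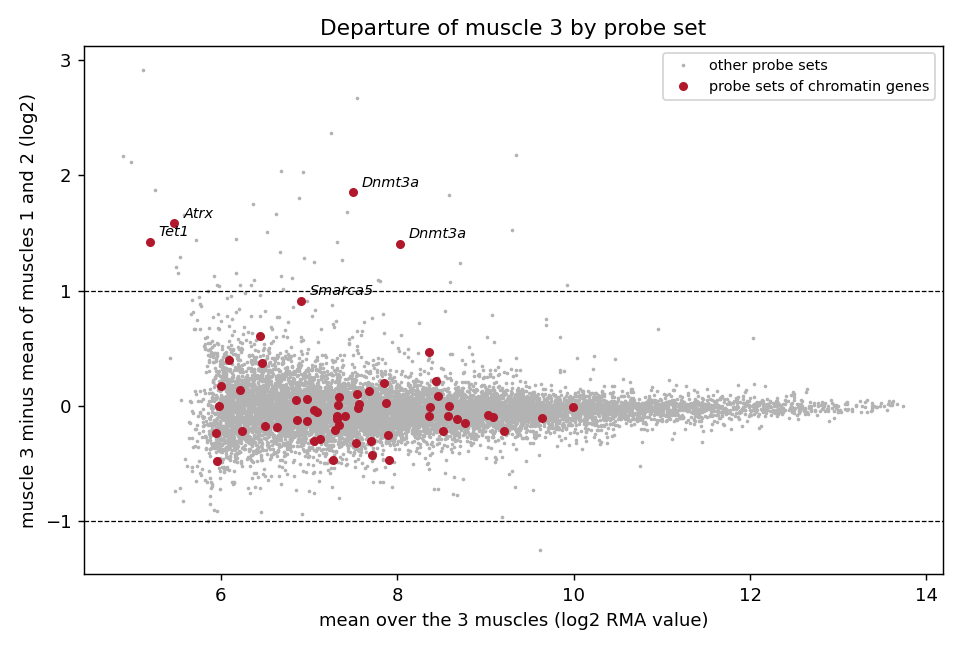
Level in muscle 3 minus the mean of muscles 1 and 2 (log2, vertical axis) against the mean level over the 3 muscles (log2 RMA value, horizontal axis) for 11032 probe sets above background in at least 1 muscle. Probe sets of chromatin genes are red. Above the upper dashed line at 1 lie 4 of them, and the highest of the remaining ones is a Smarca5 probe set at 0.91.

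The pattern was not restricted to chromatin genes. Over the whole table, 47 probe sets of 43 genes departed upward by at least 1 in muscle 3. Another probe set of the same gene was above background throughout for 38 of the 47, and for 34 of these, 89.5%, a brighter one departed by less than 0.5 in either direction. The same held for 62.2% of the 5504 probe sets above background in at least 1 muscle that could be compared in this way. Of the 47, only 21 were above background in all 3 muscles, and the remaining ones passed it in 1 or 2. The shares are not matched for level, and a dim probe set more easily has a brighter one of its gene beside it. Nothing is read from the difference between these shares. The non-coding RNA Malat1, which stays in the nucleus, was picked because its range was the widest in an earlier analysis of these data. Malat1 read 9.33 in muscle 3 on its highest probe set, against 6.74 and 6.56, and departed upward by 1 or more on 3 of its 5. Since it was picked for its values, it is an example and adds no support. Technical measures moved with muscle 3 as well. Signal of 18S ribosomal RNA at its 5' end reached 11.69 in muscle 3, against 10.96 and 11.23, and the 3' minus 5' difference of the added bacterial control dap was 3.04 against 4.13 and 3.99. For the added control thr that difference was 2.82 against 4.09 and 3.91. Of the mouse transcripts, the 3' minus 5' difference was 0.37 against 0.33 and 0.43 for Gapdh, and 0.61 against 0.76 and 0.77 for Actb. The part of these measures in the Dnmt3a, Atrx and Tet1 values was not tested.

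Probe sets of 1 gene also disagreed on whether the gene was above background. Of the 25 chromatin genes with several probe sets, 7 had all of them above background in every muscle, namely Dnmt1, Dnmt3a, Kdm1a, Kdm6a, Smarca4, Smarca5 and Smarce1. For 9 genes, Eed, Ezh1, Kdm5b, Smarca2, Smarcal1, Smarcc1, Smarcd1, Smarcd2 and Suz12, 1 probe set or more was above background in every muscle and another in none. Over single probe sets, 49 of 87, 56.3%, were above background in all 3 muscles, against 48% of all probe sets with 1 gene. A call below background for the 23 genes with 1 probe set, such as Hdac9, Kdm5a or Smarca1, rests on that probe set alone and is no proof of absence.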

How the data were processed

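RNA of 3 normal muscle samples was measured on a 3' expression array. Per the labels' protocols, Trizol was used for extraction and 500 ng of total RNA went into amplification. The authors deposited log2 values for 22690 probe sets, and the submitters' processing notes name RMA, which includes quantile normalization and so hides changes shared by most genes. Its version, and which arrays were normalized as 1 set, is not given in the sources used here, and there are no detection calls or probe signals. Platform annotation gave 1 gene for 20393 probe sets, several for 691 and none for 1606; only the first kind was used. Symbols of 20364 probe sets were matched to RefSeq by gene number, and 0 differed. All 87 probe sets of the chromatin genes matched.

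The background list held 64 genes of other organs, 53 of them measured, of which 3 were themselves above background throughout. The variance test was a one-sided F test of each variance against limma's robust, trended prior (limma 3.58.1, R 4.3.3), adjusted at 0.05 over all genes above background in at least 1 muscle, and was tested on simulated data. Since separate animals are not stated, p-values reflect the spread of these 3 samples alone, and that spread may be technical. The genes, lists and tests were chosen with earlier results of these data known. Named genes are all chromatin genes, the first 3 detected genes of each partner list in written order, the fibre markers, other cell type markers, Daxx and Malat1. Python 3.11.15, numpy 2.4.6, pandas 2.3.3 and matplotlib 3.10.9 were used.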

Additional observations from a re-analysis of the deposited data

How the results depend on the processing

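The count of chromatin genes above background in all muscles, 35, ran from 29 to 38 over the settings tried, with 38 under a second background list of 102 olfactory and similar genes, which added Chd1, Kdm2b and Kdm4c. It was 31 with probe sets averaged. Suz12 then lay at a mean of 5.63, under background, against 8.37 on its highest probe set. By limma, 0 genes were called under every alternative run, with 2 to 7 at an unadjusted p under 0.05. The 2 genes with a range of at least 1 became 0 with probe sets averaged and 0 with background at the 99th percentile, and 3 with the second background list or no filter, which admit Kdm5a; leaving out a muscle gave 0 to 2, and counting only genes above background in all muscles gave 0. The median SD of 0.115 became 0.0648 to 0.0833 with a muscle left out, as pairs of values give smaller SDs by construction. Probe sets as the unit were an addition made after seeing the data. The 2 called probe sets became 0 with background at the 99th percentile, 0 without the trend, 0 without the robust option and 0 whichever muscle was left out. They stayed 2 with quantile normalization, median centring, the second background list or no filter. Leaving out muscle 3 removes the values that departed, and leaving out any muscle leaves only a pair of values for each variance. These runs are therefore no independent check of the calls. The cause of the other losses was not tested. The 4 upward departures in muscle 3 became 2 with the stricter background and 2 over probe sets above background in all muscles, which both remove Atrx and Tet1. No paired analysis was possible because there is 1 group.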
